A study of Arabidopsis thaliana with 13 samples.

Results

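The transcripts of PERIANTHIA (PAN) and of 9 TGA factors, which together make up the TGA family of basic leucine zipper (bZIP) transcription factors of Arabidopsis thaliana, were followed through 4 populations of sorted root cells. The genes were chosen by name, with earlier results of these data known, and are 10 of the 33560 genes in the deposited table. The study is concerned with feedback between PAN, the homeobox factor WOX5 and the coactivator AN3 (GRF-INTERACTING FACTOR 1). All plants were Col-0. Roots were turned into protoplasts 5 days after germination, and cells were collected by fluorescence. Cells carrying the WOX5::GFP reporter, a marker of the quiescent centre (QC, the small group of rarely dividing cells around which the root's stem cells lie), came from the wild type (3 libraries) and from the wox5-1 mutant (4 libraries). Cells carrying the CYCD6::GUS-GFP reporter, called the CEI marker (cortex-endodermis initial, the stem cell of the ground tissue), came from the wild type (3 libraries) and from wox5-1 (3 libraries). Per the labels, libraries within a group are biological replicates; the number of plants in each is not stated. Both populations are defined by where a promoter is active, so the QC-marker cells of wox5-1 are cells in which the WOX5 promoter drives the reporter in the absence of normal WOX5. The CEI-marker libraries are named here by the numbers in the table (1, 3 and 4 in the wild type; 1, 2 and 4 in wox5-1).

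TGA factors bind DNA elements with a TGACG core as dimers. They carry no strong activation domain of their own and act with partners, mainly the NPR and BOP proteins, which include salicylic acid receptors, and the CC-type glutaredoxins (ROXY proteins). The family is divided into 5 classes, known for defence and nitrate responses (class I, TGA1 and TGA4), salicylic acid and detoxification responses (class II, TGA2, TGA5 and TGA6), basal defence (class III, TGA3 and TGA7), anther development (class IV, TGA9 and TGA10) and flower organ number (class V, PAN). In the root, PAN is known from the QC, where it acts in the stem cell niche.

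Levels are in FPKM, which scales the fragments of a gene to its length and to the depth of the library, and differences are on the log2(FPKM + 1) scale with limma's standard error (SE) and a p-value adjusted over the 21574 genes tested. By a rough estimate the wild-type QC-marker libraries were shallow, at 5.8 to 8.1 M (mega) fragments, against an estimated 18.8 to 39.5 M in the others. WOX5, the mutated gene, had 163 to 262 FPKM in the wild-type QC-marker group and no more than 0.114 FPKM in that of wox5-1, as the labels say. In all, 3 libraries stood apart. In wild-type QC-marker library 2, as many as 19783 genes had a value of 0, where other libraries had 5385 to 12971. Wild-type CEI-marker library 4 had a summed level of 2357.8 FPKM over 4 root cap markers, against 102.6 and 9.0 FPKM in libraries 1 and 3, and 41.8 FPKM over 5 CEI and ground tissue markers, against 174.8 and 282.0 FPKM. In wox5-1 CEI-marker library 1, 3 green tissue markers summed to 10066.5 FPKM, against 13.6 and 34.8 FPKM in libraries 2 and 4. Summed over 5 QC markers, levels were 408.3 to 497.3 FPKM in wild-type and 64.0 to 76.8 FPKM in wox5-1 QC-marker cells, and 9.2 to 65.0 FPKM in the 6 CEI-marker libraries. These 5 markers include WOX5 itself, so part of the fall in wox5-1 is the mutation. Between populations of wox5-1, 1 of the 5, WIP5, passed as higher in QC-marker cells (5.14, SE 0.53, adjusted p = 0.000493), and 3 of the 5 had differences below 0. CYCD6;1, the gene of the CEI reporter, did not separate the populations in wox5-1, with 4.56 to 5.75 FPKM in QC-marker and 0.75 to 5.47 FPKM in CEI-marker cells.

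PAN (AT1G68640), the sole class V factor, was detected in 12 of 13 libraries and had its lowest mean in CEI-marker cells of wox5-1. In QC-marker cells, wild-type libraries 1, 2 and 3 held 24.9, 0 and 31.2 FPKM. In the 4 wox5-1 libraries of this population it was at 17.6, 24.9, 12.7 and 11.8 FPKM. Thus 2 wild-type libraries equalled or exceeded every mutant library, and the remaining one listed no PAN transcript. In CEI-marker cells, wild-type libraries 1, 3 and 4 held 17.3, 11.9 and 0.644 FPKM of PAN. In wox5-1 CEI-marker libraries 1, 2 and 4 it was at 2.28, 2.60 and 3.91 FPKM. Here 2 wild-type libraries lay above the mutant and the third below it.

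**Figure D1:**
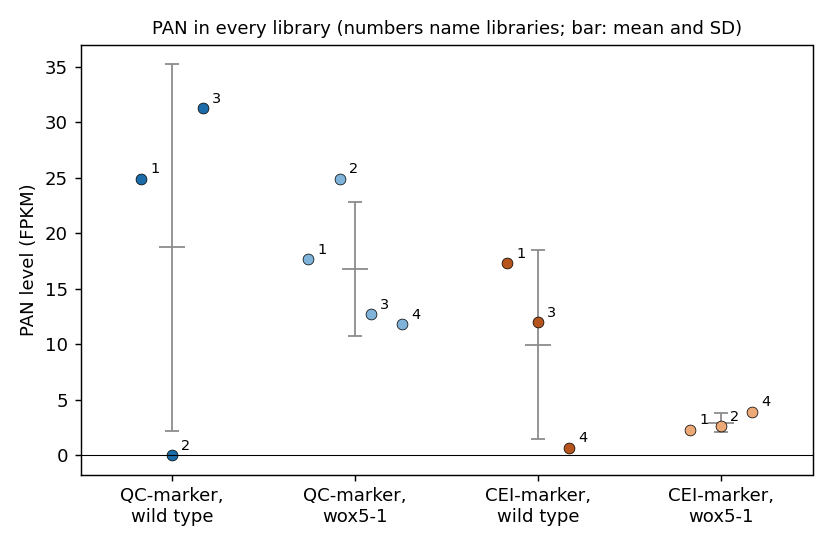
PAN level (FPKM, vertical axis) in each of the 13 libraries, by population and genotype; points are libraries with their numbers, grey bars are group mean and SD. The 3 wox5-1 CEI-marker libraries lie between 2.28 and 3.91 FPKM, all below the 4 wox5-1 QC-marker libraries at 11.8 to 24.9 FPKM.

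Group means ordered PAN from wild-type QC-marker cells (18.7 ± 16.5 FPKM, SD, n = 3) through wox5-1 QC-marker cells (16.8 ± 6.0, n = 4) and wild-type CEI-marker cells (9.95 ± 8.49, n = 3) to wox5-1 CEI-marker cells (2.93 ± 0.866, n = 3). The first 3 overlap, and so do the wild-type and wox5-1 CEI-marker groups. Of the 4 comparisons of genotypes or populations, PAN separated the groups without overlap in 1, QC-marker against CEI-marker cells of wox5-1. In the fit of all 13 libraries that difference was 2.14 (SE 1.05, 95% interval -0.12 to 4.4) and did not pass the test (adjusted p = 0.263). Leaving out any 1 of the 7 wox5-1 libraries moved it between 1.94 and 2.31, also without the library with high green tissue markers. The spread in that fit is shared with the wild type, in which PAN ran from 0 to 31.2 FPKM. Fitted on the 7 wox5-1 libraries alone, the same difference had an SE of 0.32 and passed (adjusted p = 0.00299), in a fit that called 26.8% of the genes it tested. In these bulk samples, fewer PAN-expressing cells and less PAN RNA per cell cannot be told apart.

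In the fit of all 13 libraries no change of PAN was called between wox5-1 and the wild type in either population. In QC-marker cells the difference, wox5-1 minus wild type, was 0.86 (SE 1.05, 95% interval -1.4 to 3.11, adjusted p = 0.675). Its sign rests on wild-type library 2, and leaving that out gave -0.76 (SE 0.75, adjusted p = 0.672). One fragment of PAN in that library would be worth about 0.108 FPKM, and at the mean of the other 2 wild-type libraries it would have held an estimated 260 fragments. Fragments of a low-input library are not independent molecules, and whether PAN was absent from these cells or lost from the library was not tested. In CEI-marker cells the difference was -0.91 (SE 1.13, 95% interval -3.33 to 1.5, adjusted p = 0.851). The value became -1.99 (SE 1.12, adjusted p = 0.398) without wild-type library 4, the library with high root cap and low ground tissue markers, and -0.25 and -0.50 without libraries 1 and 3. Leaving out all 3 libraries that stood apart, a choice made after seeing the data, PAN was lower by 1.87 in CEI-marker cells of wox5-1 (SE 0.39, adjusted p = 0.00944). That fit called 21.9% of genes. It compares CEI-marker libraries 1 and 3 of the wild type with libraries 2 and 4 of wox5-1. The 3 libraries left out held the lowest PAN values of all 13 (0, 0.644 and 2.28 FPKM), so the choice itself bears on the difference and its SE. The part of root cap and green tissue cells in these values was not tested.

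Neither of the other 2 PAN comparisons passed the test. Between populations of the wild type the difference, QC-marker minus CEI-marker, was 0.37 (SE 1.13, adjusted p = 0.904). Leaving out 1 wild-type library at a time moved it between -0.71 (without CEI-marker library 4) and 1.99 (without QC-marker library 2), and it was -0.36 and -0.52 without QC-marker libraries 1 and 3. The wox5-1 effect in QC-marker cells minus that in CEI-marker cells was 1.77 (SE 1.54, adjusted p = 0.649), with a range of 0.15 (leaving out QC-marker library 2 of the wild type) to 2.85 (leaving out its CEI-marker library 4). The SE of PAN exceeded that of 97.7% of the genes tested, and a difference of 4.06 would have been needed for a call between genotypes in QC-marker cells. Per the reference annotation, PAN overlaps AT1G68630, which was at 0 to 4.25 FPKM, and without strand the fragments of such a pair cannot be assigned to one or the other.

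As a description over the 13 libraries, the genes most like PAN in log2(FPKM + 1) were CSN5A (Pearson's r = 0.94), which encodes a COP9 signalosome subunit, UVH6 (0.93), a DNA repair helicase, PUM6 (0.93), SGF29b (0.92) and the auxin influx carrier LAX3 (0.92). Without wild-type QC-marker library 2 (n = 12), the 5 most like it included SRT1 (0.96), a sirtuin, PIP (0.95), PLT2 (0.95), a PLETHORA factor of the root stem cell niche, and the tubulin TUB7 (0.95). None of the first 5 is among the second 5, so this ranking turns on 1 library. In the 2 settings 45 and 78 of the 14020 genes compared had r above 0.9, so the genes named are some of many. By ranks (Spearman) over all 13 libraries PIP came first (0.96), and PLT2 was not among the first 5. PLT2 ran from 49.3 to 120.8 FPKM over the 7 QC-marker libraries and from 14.5 to 16.4 FPKM in wox5-1 CEI-marker cells. It was at 40.3, 43.2 and 8.41 FPKM in wild-type CEI-marker libraries 1, 3 and 4. PAN and PLT2 were thus both low in wild-type CEI-marker library 4 and in the 3 mutant CEI-marker libraries, and differed in wild-type QC-marker library 2, where PLT2 was at 120.8 FPKM.

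Among the QC markers, TEL1 was closest to PAN over those 12 libraries (r = 0.90, and 0.34 over 13). The other QC markers ran from 0.39 (AGL42) to 0.65 (WIP5), and over 13 from -0.09 to 0.35. Markers of other cell types were closer over 13 libraries, with 0.75 for JKD, 0.71 for APL and 0.6 for SCR. Over the 12 these had 0.66, 0.59 and 0.54. The other study genes were less alike than TEL1. Over the 12, WOX5 had r = 0.57 and AN3 had r = 0.19 (0.12 and 0.04 over 13). Among the TGA factors, r over the 12 ran from -0.60 for TGA4 to 0.73 for TGA2. These libraries share groups and depth, and the correlations carry no test.

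**Figure D2:**
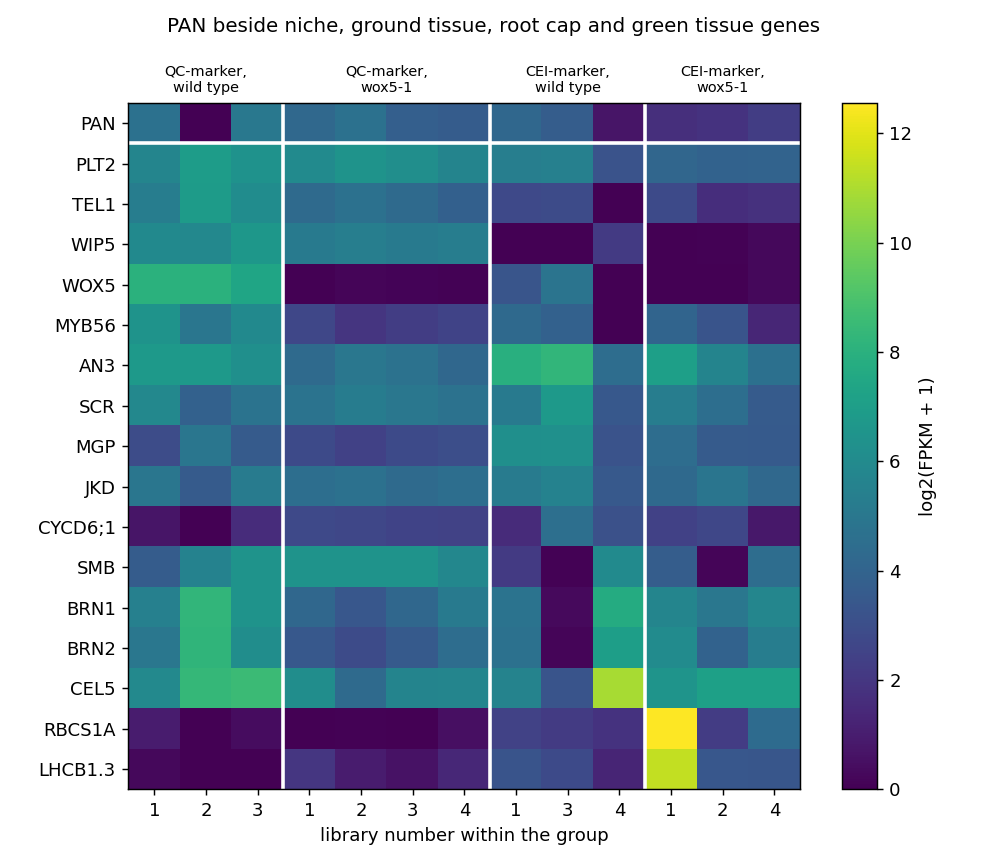
Level as log2(FPKM + 1), by colour, of PAN and 16 genes of the niche, ground tissue, root cap and green tissue (rows) in the 13 libraries (columns, grouped). PLT2 is low where PAN is low except in wild-type QC-marker library 2, where PAN is listed at 0 and PLT2 is at 120.8 FPKM, and CEL5 stands out in wild-type CEI-marker library 4.

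TGA1 (AT5G65210) and TGA4 (AT5G10030), the class I factors, were the most abundant pair per length. TGA1 was at 21.7, 95.9 and 32.5 FPKM in QC-marker cells of the wild type, against 44.2, 59.1, 46.9 and 54.7 FPKM in those of wox5-1. In CEI-marker cells it was at 11.6, 51.1 and 30.8 FPKM in wild-type plants, against 48.4, 50.5 and 47.5 FPKM in wox5-1. The mutant libraries were close to each other in both populations, and lay within the wider wild-type range. The differences, wox5-1 minus wild type, were 0.31 (SE 0.51, adjusted p = 0.762) in QC-marker and 0.86 (SE 0.54, adjusted p = 0.686) in CEI-marker cells. TGA1 averaged 45.8 FPKM over the 13 libraries, more than 84.5% of the genes tested, and was the highest of the 10 genes in 10 libraries. PAN was highest in 2 libraries, wild-type QC-marker library 1 and wild-type CEI-marker library 1, and TGA7 in 1.

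TGA4 was below TGA1 in all 13 libraries, by a median ratio of 2.81 (range 1.38 to 4.2). It was at 13.3, 22.9 and 9.39 FPKM in QC-marker cells of the wild type, against 12.3, 15.5, 13.4 and 17.0 FPKM in those of wox5-1. In CEI-marker cells it was at 8.40, 27.2 and 17.9 FPKM in wild-type plants, against 29.3, 18.0 and 17.8 FPKM in wox5-1. TGA4 had its higher means in CEI-marker cells, and in wox5-1 all 3 CEI-marker libraries were above the 4 QC-marker libraries. The test did not call that difference (-0.52, SE 0.44, adjusted p = 0.540), nor those between genotypes (0.02 and 0.37, adjusted p = 0.990 and 0.860). TGA4 overlaps AT5G10050, which was at 2.30 to 13.6 FPKM.

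TGA2 (AT5G06950), a class II factor needed with TGA5 and TGA6 for systemic acquired resistance, was the steadiest of the 10 genes, its SE exceeding that of 8.1% of genes. It was at 24.2, 21.7 and 19.7 FPKM in QC-marker cells of the wild type, against 21.5, 21.6, 21.2 and 14.1 FPKM in those of wox5-1. In CEI-marker cells it was at 11.5, 16.1 and 10.4 FPKM in wild-type plants, against 12.3, 14.7 and 8.42 FPKM in wox5-1. QC-marker libraries were above CEI-marker libraries throughout the wild type, and in wox5-1 with the exception of library 4. The differences, QC-marker minus CEI-marker, were alike in size in the wild type (0.76, SE 0.38, 95% interval -0.06 to 1.58) and in wox5-1 (0.70, SE 0.36, 95% interval -0.07 to 1.47), and neither passed the test (adjusted p = 0.438 and 0.285). Between genotypes TGA2 differed by -0.17 in QC-marker and by -0.10 in CEI-marker cells, with 95% intervals of -0.94 to 0.60 and -0.93 to 0.72.

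TGA5 (AT5G06960), the neighbour of TGA2 in the genome, had levels of 10.7, 2.38 and 14.2 FPKM in QC-marker cells of the wild type. In those of wox5-1 it was at 17.7, 17.2, 16.6 and 12.7 FPKM. All mutant libraries but 1 were above the wild type, and the difference of 1.00 (SE 0.52, adjusted p = 0.305) did not pass the test and was 0.34 without wild-type library 2. It had levels of 8.24, 10.7 and 5.61 FPKM in CEI-marker cells of the wild type, against 11.2, 6.52 and 13.4 FPKM in those of wox5-1, groups that overlap. TGA2 was above TGA5 in 12 of 13 libraries, the exception being wox5-1 CEI-marker library 4.

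TGA6 (AT3G12250) was the lowest of class II in most libraries, below TGA2 in all 13 and below TGA5 in 11. It was at 8.05, 3.44 and 12.1 FPKM in QC-marker cells of the wild type, against 6.19, 10.03, 8.84 and 8.0 FPKM in those of wox5-1. In CEI-marker cells it was at 4.67, 8.63 and 2.98 FPKM in wild-type plants, against 9.69, 6.89 and 4.62 FPKM in wox5-1. Its groups overlapped in all 4 comparisons, and its differences ran from 0.18 to 0.42. TGA6 overlaps AT3G12260, which was far higher (89.2 to 271 FPKM) and cannot be told apart from it where they overlap.

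TGA3 (AT1G22070), a class III factor that binds defence promoters with NPR1, had its lowest mean in wild-type QC-marker cells. It was at 3.78, 0 and 8.29 FPKM there and at 8.30, 12.1, 7.16 and 11.9 FPKM in those of wox5-1. The groups overlapped through wild-type library 3, and the zero came from the library with most genes at 0. The difference of 1.59 (SE 0.64, 95% interval 0.22 to 2.95) had an unadjusted p of 0.0259 and did not pass after adjustment (adjusted p = 0.187). Leaving out wild-type library 2 gave 0.68. In CEI-marker cells TGA3 was at 5.73, 6.49 and 7.93 FPKM in wild-type plants, against 4.67, 6.87 and 5.42 FPKM in wox5-1, a difference of -0.22 (SE 0.68, adjusted p = 0.952).

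TGA7 (AT1G77920), the other class III factor, exceeded TGA3 in all 13 libraries, by a median ratio of 2.98 in the 12 libraries where both were above 0. It was at 14.7, 34.0 and 38.7 FPKM in QC-marker cells of the wild type, against 24.2, 29.8, 21.8 and 25.6 FPKM in those of wox5-1. In CEI-marker cells it was at 7.84, 8.77 and 22.3 FPKM in wild-type plants, against 14.7, 20.9 and 17.8 FPKM in wox5-1. QC-marker means were the higher ones in both genotypes, with no overlap in wox5-1. In the wild type the difference was 1.15 (SE 0.46, 95% interval 0.16 to 2.14), with an unadjusted p of 0.0263 and an adjusted p of 0.356. In wox5-1 it was 0.49 (SE 0.43, adjusted p = 0.552). Both SEs rest on a spread shared by all groups. The median SD of all genes tested was 0.924 and 0.685 in wild-type QC-marker and CEI-marker cells, against 0.263 and 0.553 in those of wox5-1. The interval for the wild type may thus be too narrow.

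TGA9 (AT1G08320) and TGA10 (AT5G06839), the class IV factors that act with ROXY glutaredoxins in anthers, were both detected in these root cells. TGA9 was the lowest of the 10 genes on average. It was at 6.77, 2.72 and 0 FPKM in QC-marker cells of the wild type, against 1.98, 2.31, 1.78 and 3.22 FPKM in those of wox5-1. In CEI-marker cells it was at 4.97, 8.30 and 1.27 FPKM in wild-type plants, against 4.99, 11.1 and 3.32 FPKM in wox5-1. The 3 mutant CEI-marker libraries were above the 4 mutant QC-marker libraries, by 3.32 against 3.22 FPKM at the nearest, and the difference was -1.05 (SE 0.70, adjusted p = 0.421).

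TGA10 had levels of 8.04, 0.340 and 0.599 FPKM in QC-marker cells of the wild type, against 11.3, 12.7, 6.46 and 10.9 FPKM in those of wox5-1. Thus 2 of the 3 wild-type libraries were low, while library 1 lay within the mutant range. The low libraries, 2 and 3, held 977.3 and 619.2 FPKM summed over the 4 root cap markers, against 144.5 FPKM in library 1 and 122.5 to 185.1 FPKM in wox5-1. The 4 markers did not all go the same way. Between genotypes in QC-marker cells BRN1, BRN2 and CEL5 differed by -2.48, -2.86 and -2.15 and SMB by 1.09, with none called. The part of root cap cells in the TGA10 values was not tested. The difference of 2.04 (SE 0.75, 95% interval 0.45 to 3.64) was the largest of the 10 genes in this comparison and did not pass (unadjusted p = 0.0158, adjusted p = 0.147). Leaving out wild-type library 1 gave 2.92 (SE 0.70) and passed (adjusted p = 0.0284). That fit keeps library 2, in which 19783 genes had a value of 0. Without 1 library at a time the difference ran from 1.54 to 2.92, and no other of these fits passed (adjusted p up to 0.336). TGA10 had levels of 10.2, 12.7 and 1.39 FPKM in CEI-marker cells of the wild type, against 9.05, 15.5 and 5.84 FPKM in those of wox5-1, which overlap. It exceeded TGA9 in 12 of 13 libraries, the exception being wild-type QC-marker library 2.

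**Figure D3:**
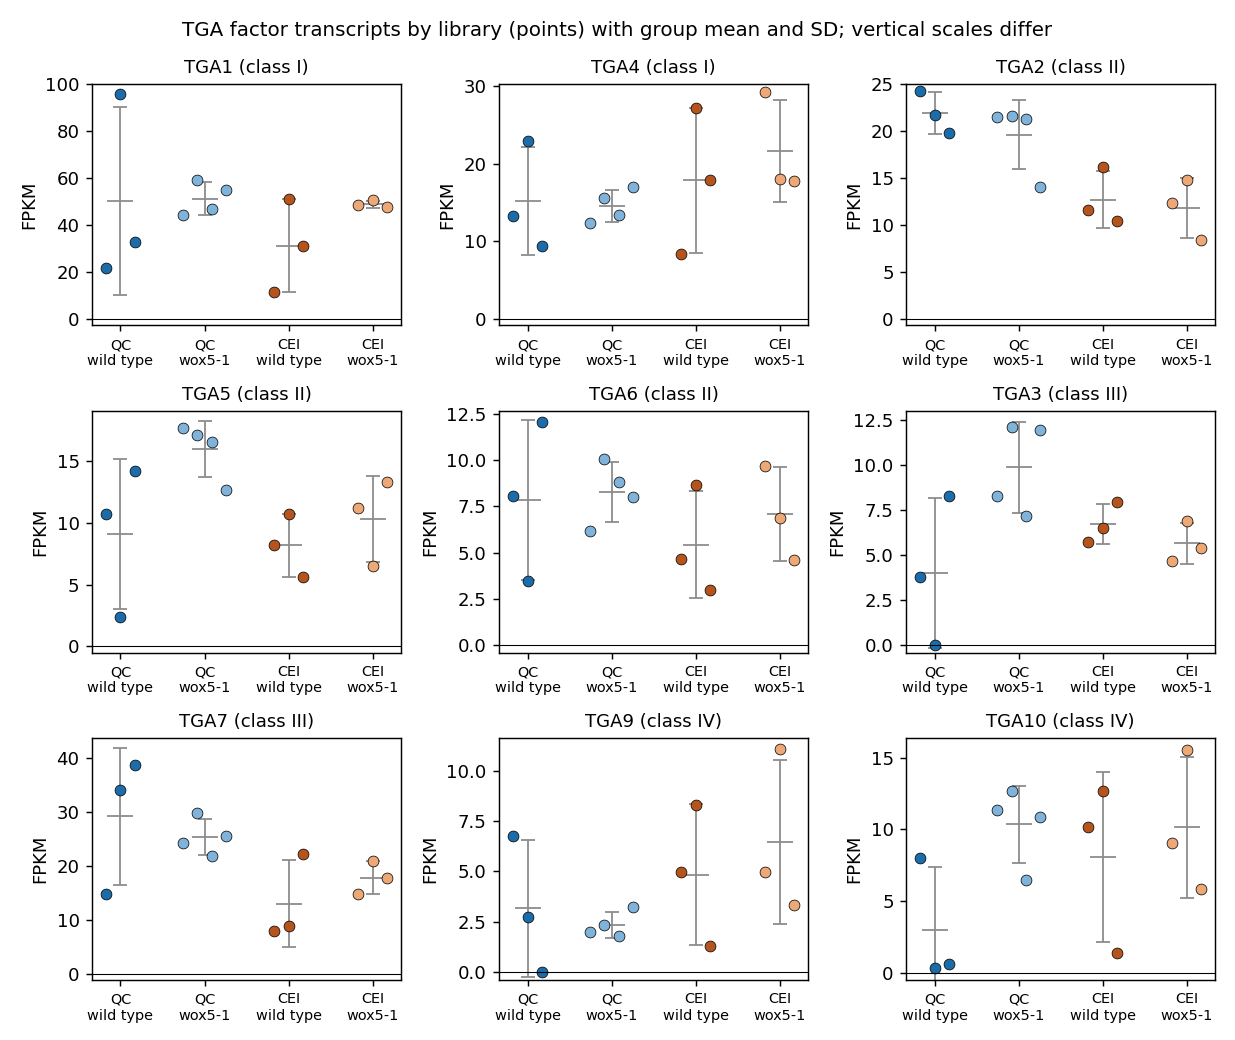
Level (FPKM) of the 9 TGA genes in each library (points), by group, with group mean and SD in grey; vertical scales differ between panels. The wild-type groups spread more widely than the wox5-1 QC-marker group for TGA1 and TGA10, as they did at the median of all genes tested. Wild-type QC-marker TGA2 (19.7 to 24.2 FPKM) lies above wild-type CEI-marker TGA2 (10.4 to 16.1 FPKM).

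Across the family, limma called none of the 10 genes in any comparison. Between genotypes in QC-marker cells, 0 of 10 were called where 3.43% of all genes were, and 2 of 10 (TGA3 and TGA10, both higher in wox5-1) had an unadjusted p under 0.05, as had 19.7% of all genes. In CEI-marker cells 0 of 10 were called, against 0.0278% of all genes, and 0 of 10 had an unadjusted p under 0.05, against 8.04%. Between populations 0 of 10 were called in the wild type (all genes, 0.357%) and 1 had an unadjusted p under 0.05 (TGA7; all genes, 12.1%). In wox5-1, 0 of 10 were called (all genes, 4.31%) and 0 had an unadjusted p under 0.05 (20.9%). For the difference of the genotype effects both counts were 0 of 10, against 0.0232% and 11.1% of all genes, and the smallest adjusted p was that of TGA3 (1.80, SE 0.93, adjusted p = 0.482). The shares expected from all genes are below 1 gene in 10 for the adjusted test, so these counts are near the background.

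Groups did not overlap for 0 of 10 genes between genotypes in QC-marker cells (all genes, 23.6%) and for 0 of 10 in CEI-marker cells (11%). Between populations of the wild type, 1 of 10 separated, TGA2 (10%). In wox5-1, 5 of 10 separated (36.2%). Higher in its QC-marker cells were PAN, TGA3 and TGA7, and lower were TGA4 and TGA9 (26.5% and 9.72% of all genes). The median difference of the 10 genes was 0.24 between genotypes in QC-marker cells, where that of all genes tested was 0.32, and 0.37 in CEI-marker cells, where it was 0.08. Between populations it was 0.14 in the wild type (all genes -0.10) and 0.36 in wox5-1 (all genes 0.30). Median-of-ratios scaling moved the last median of all genes to -0.11, and the differences of TGA1, TGA6 and TGA10 between populations of wox5-1 then turned negative.

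**Figure D4:**
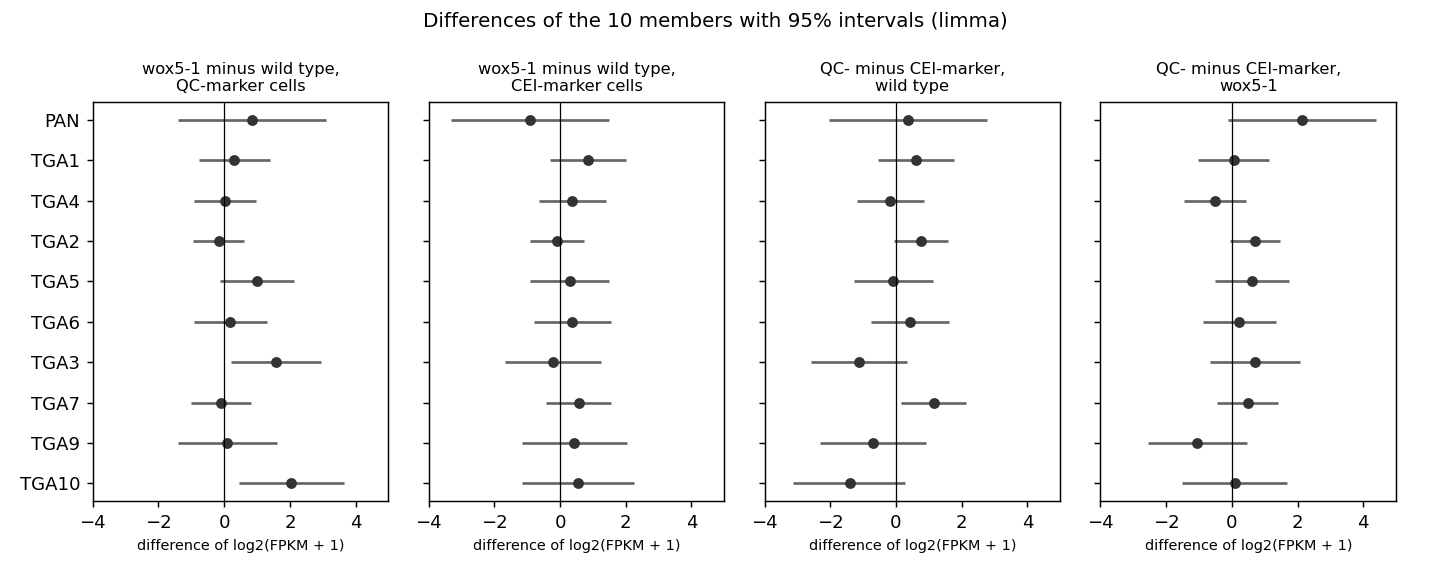
Differences of log2(FPKM + 1) for the 10 genes in 4 comparisons (panels), points being limma estimates and lines 95% intervals. Lines that exclude 0 are those of TGA3 and TGA10 between genotypes in QC-marker cells and of TGA7 between populations of the wild type, none of which passed after adjustment, and PAN has the widest lines. All lines rest on a spread shared by all groups, though the wild-type groups spread more widely at the median of all genes.

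The make-up of the family was compared as each gene's share of the summed FPKM of the 10, which ran from 90.4 to 205.3 FPKM per library. PAN took 18.3%, 0% and 18.7% of it in wild-type QC-marker cells and 10.7%, 12.1%, 8.1% and 6.9% in those of wox5-1. It took 19.1%, 7.4% and 0.6% in wild-type and 1.6%, 1.7% and 3.1% in wox5-1 CEI-marker cells. The share of PAN in wox5-1 was thus lower in all 3 CEI-marker than in all 4 QC-marker libraries, as its level was. Class I took the largest mean share in every group, 37.8% ± 3.4 (SD, n = 4) in wox5-1 QC-marker and 49.5% ± 4.4 (n = 3) in wox5-1 CEI-marker cells, whose ranges (34.1% to 42.2% and 44.6% to 53.0%) did not overlap. Class II held 20.5% to 25.4% and class III 16.5% to 20.2% of the sum as group means. These shares are no test, since a lower share of 1 gene raises the others.

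**Figure D5:**
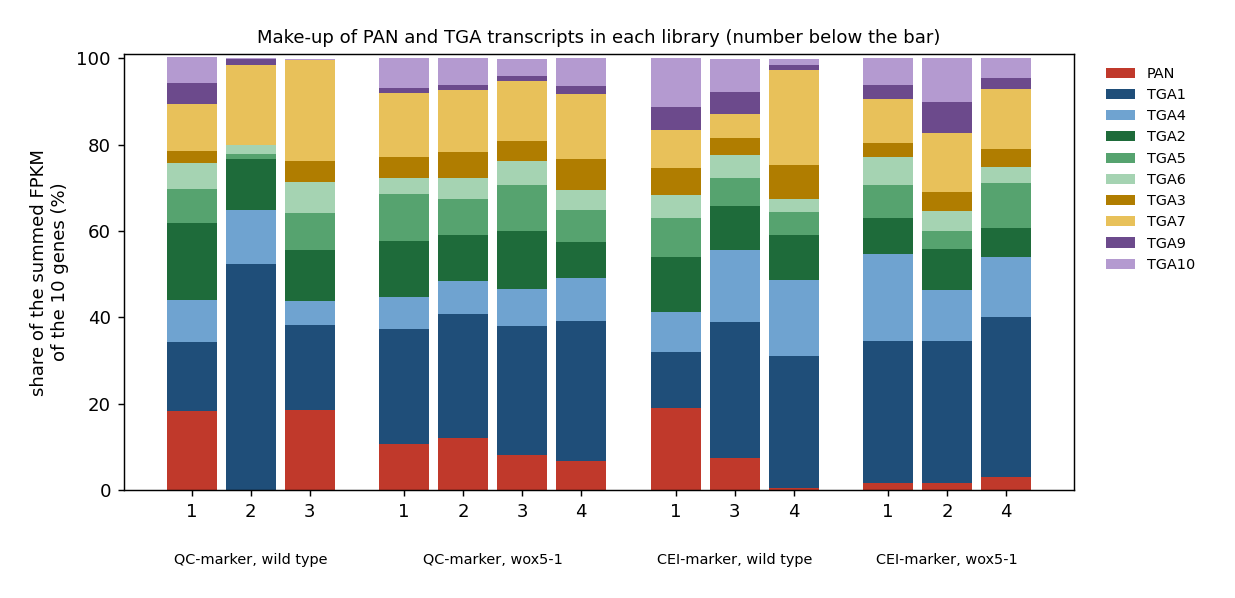
Share (%) of each gene in the summed FPKM of the 10 genes, 1 bar per library, grouped by population and genotype. PAN (red, at the base) is between 6.9% and 12.1% in the wox5-1 QC-marker libraries and between 1.6% and 3.1% in the wox5-1 CEI-marker libraries, and class I (blues) takes 34.1% to 42.2% and 44.6% to 53.0%.

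Other genes of the pathway were read from 6 lists of partners and known targets. Of the NPR and BOP family, 3 of 6 passed the filter, and 0 were called between genotypes in either population. NPR1, a salicylic acid receptor and coactivator of TGA factors, was at 8.52, 0.143 and 3.54 FPKM in QC-marker cells of the wild type, against 14.99, 16.3, 15.01 and 19.1 FPKM in those of wox5-1. All 4 mutant libraries were above the wild type, and the difference of 2.23 (SE 0.62) fell short of a call (adjusted p = 0.0622). It was 2.92 without wild-type library 1 (adjusted p = 0.0133), 1.39 without wild-type library 2 (0.102), and at an adjusted p of up to 0.163 without 1 mutant library. NPR3, which acts as a corepressor with TGA factors, differed by 1.97 (SE 0.70, adjusted p = 0.139), and by 1.05 without wild-type library 2 (adjusted p = 0.433). In CEI-marker cells NPR3 differed by 0.27 and NPR4 by 0.20, and neither passed the test (adjusted p = 0.946 for NPR3).

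Of the 21 CC-type glutaredoxins, 6 passed the filter and 0 were called between genotypes in either population. The 2 with the smallest adjusted p in QC-marker cells were ROXY18, with a difference of 1.80 (adjusted p = 0.183; 0.82 to 2.65 without 1 library at a time), and ROXY19, with 1.04 (adjusted p = 0.262), and in CEI-marker cells ROXY18, with 1.33 (adjusted p = 0.660), and ROXY15, with 0.54. Of 11 salicylic acid response genes, 6 were tested and 0 called between genotypes. EDS5, a transporter in salicylic acid production, differed by 1.25 in QC-marker cells (SE 0.34, adjusted p = 0.0587; 0.0344 to 0.163 without 1 library at a time, with a call without wild-type library 2 alone), and NIMIN2, which encodes an NPR1-interacting protein, by 1.70 (adjusted p = 0.151). In CEI-marker cells WRKY70, a transcription factor of the salicylic acid response, differed by 2.07 (SE 0.75, adjusted p = 0.563) and NIMIN2 by 1.74 (adjusted p = 0.587). Between populations, which the rule for naming these genes did not cover and which were added after the values were seen, WRKY70 was called lower in QC-marker than in CEI-marker cells of wox5-1 (-3.19, SE 0.70, adjusted p = 0.0221). That call held without CEI-marker library 1 and was lost without any 1 of the other 6 wox5-1 libraries (adjusted p = 0.0546 to 0.119).

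The detoxification genes, many of which are induced by xenobiotics through class II factors, held the genes of these lists, other than WOX5, that were called between genotypes. All 13 were tested, and 2 were higher in wox5-1 QC-marker cells (all genes called higher, 3.05%). NAC032, a stress-response NAC factor, had levels of 55.3, 96.3 and 30.9 FPKM in QC-marker cells of the wild type, against 223, 207, 227 and 288 FPKM in those of wox5-1. It rose by 2.07 (SE 0.41, adjusted p = 0.0175) with no overlap. CYP81D11, a cytochrome P450, was at 111, 9.64 and 1.44 FPKM in the same wild-type libraries, against 423, 304, 338 and 440 FPKM in wox5-1. It rose by 4.71 (SE 1.04, adjusted p = 0.0264). Like TGA10 it was low in the 2 wild-type QC-marker libraries with a high sum of root cap markers. In wild-type CEI-marker library 4, with root cap markers at 2357.8 FPKM, CYP81D11 was at 135.8 FPKM. Libraries 1 and 3 of that group, with root cap markers at 102.6 and 9.0 FPKM, held 138.5 and 12.0 FPKM. The part of root cap cells in these values was not tested. Both calls were lost in some of the fits without 1 library, while the differences stayed above 0 (1.67 to 2.47 for NAC032 and 3.43 to 6.19 for CYP81D11). NAC032 missed the threshold without wild-type library 3 (adjusted p = 0.0504) or without wox5-1 library 1, 3 or 4 (0.0521, 0.0531 and 0.0631). CYP81D11 passed without wild-type library 1 (adjusted p = 0.00182) and missed it without any other of the 7 libraries (adjusted p = 0.0614 to 0.0786). Over the list the median difference was 0.76, against 0.32 over all genes, and 12 of 13 were above 0, as were 63.7% of all genes. In CEI-marker cells 0 of 13 were called, NAC032 differed by 0.94 (adjusted p = 0.621) and AKR4C9, an aldo-keto reductase, by 0.97, and the median was 0.04. Whether the effects differ between the populations was tested for both called genes and did not pass (NAC032 1.14, adjusted p = 0.494; CYP81D11 3.80, adjusted p = 0.398).

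Of 3 nitrate transport genes 1 was tested, NRT1.1, a nitrate sensor and transporter upstream of class I factors, which differed by -0.01 in QC-marker and 0.28 in CEI-marker cells. Of the 5 genes linked with PAN in meristems, WOX5 and AN3 were tested, and WUS, AG and LFY did not pass the filter. WOX5 was lower in QC-marker cells of wox5-1 by -7.71 (adjusted p = 0.000784), the mutated gene itself. In CEI-marker cells WOX5 differed by -2.62 (adjusted p = 0.527; -3.97 with an adjusted p of 0.048 without wild-type library 4) and AN3 by -1.09 (adjusted p = 0.731; -2.30 to -0.41 without 1 library at a time). In QC-marker cells AN3, outside the rule and added after its values were seen, had wild-type levels of 105.3, 106.7 and 76.3 FPKM, against 19.1, 30.4, 25.4 and 17.2 FPKM in wox5-1, groups without overlap. AN3 differed there by -2.03 (SE 0.75), short of a call (adjusted p = 0.152). Without 1 library at a time the difference ran from -2.19 to -1.91, with no call (adjusted p = 0.153 to 0.293). It passed on the 7 compared libraries alone (adjusted p = 0.0109), in a fit that called 5.4% of genes. Without the 3 libraries that stood apart it also passed (adjusted p = 0.0095), where 8.86% of genes were called. Between populations of the wild type, likewise outside the rule, WOX5 was called higher in QC-marker cells (5.09, SE 0.88, adjusted p = 0.0256), and not without QC-marker library 2 or 3 or CEI-marker library 1 (adjusted p = 0.0634 to 0.0754).

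The other TGA factors were each most like different genes over the 13 libraries. The highest Pearson's r was 0.94 for TGA1 (CIPK13, a protein kinase), 0.86 for TGA4 (WRKY17, a WRKY factor), 0.94 for TGA2 (TMKL1, a receptor-like kinase) and 0.97 for TGA5 (VPS35C, a retromer subunit). It was 0.90 for TGA6 (MFP1), 0.96 for TGA3 (DEAR2), 0.93 for TGA7 (BRG3) and 0.93 for TGA10 (CAD5, a cinnamyl alcohol dehydrogenase). For TGA3 the value rests on the library that lists it at 0, without which the highest was 0.85 (PERK1, n = 12). TGA9, with a mean of 4.05 FPKM, was under the level set for this measure.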

How the data were processed

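RNA was measured in 13 libraries, made with a low-input SMARTer kit per the labels' protocols. FPKM values are as deposited by the authors. Per the submitters' processing notes, Cufflinks was used (no version named). As aligner, genome build, annotation and strand were not given in the sources used here, coordinates are left out. Symbols, overlaps and neighbours came from RefSeq (TAIR10.1), which matched 32826 of 33560 identifiers. Depth was estimated from the FPKM steps of single fragments and entered no test. At the depth chosen for each library, 34.2% to 45.9% of the values used lay within 0.1 of a whole fragment, against 20% by chance, so the depths are rough.

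Genes reaching 1 FPKM in 3 or more libraries (21574) were tested with limma 3.58.1 (R 4.3.3), 2-sided, with a mean-variance trend, on log2(FPKM + 1), which understates changes of low genes. All 13 libraries entered 1 fit with 4 group means. Benjamini-Hochberg adjustment ran over all genes tested, and calls were made at an adjusted p under 0.05. The code was tested on simulated data. No molecular identifiers are named, so fragments are not independent molecules. No 2 libraries were identical.

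The 10 genes, the 6 lists (59 genes) and the rule for named genes were chosen with earlier results of these data known. The rule named all 10 genes, in each list the called genes or otherwise the 2 with the smallest adjusted p in each genotype comparison, and the 5 (PAN) or up to 3 genes most like each gene with a mean of at least 5 FPKM, of which the first is printed for the TGA factors. Of the genes named by this rule, 1 is not reported here. Alternatives were a lower (0.1) and a higher (5) pseudocount, a filter at 5 FPKM or none, median-of-ratios scaling, quantile normalization, fits on the compared libraries, a replicate block and leaving out libraries.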

Additional observations from a re-analysis of the deposited data

Results flagged for a closer look

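TGA2 in wox5-1 QC-marker library 4 was at 14.1 FPKM, against 21.2 to 21.6 FPKM in the other 3 libraries of the group. The gap to the nearest library was 0.952 of the group's range, above Dixon's 95% critical value for a group of 4. In all, 20 genes were examined in this group of 4 and 1 stood out, and chance alone flags about 1 in 20 groups.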

How the results depend on the processing

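Calls among the 10 genes changed under few alternatives. The count was 1 in place of 0 between genotypes in QC-marker cells without wild-type library 1 (TGA10; range 0 to 1 over the fits without 1 library). It was 1 between populations of wox5-1 when fitted on those libraries alone (PAN), and 1 each between genotypes in CEI-marker cells and between populations of wox5-1 without the 3 libraries that stood apart (PAN, difference 2.02 and adjusted p = 0.00329 in the latter). Those 3 libraries held the lowest PAN values. Of 590 alternative values of the 40 differences printed for the 10 genes, 54 had the opposite sign and 4 gained a call, and the cause was not tested.

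Opposite signs arose as follows. With a pseudocount of 0.1, PAN between populations of the wild type was -0.33. With a pseudocount of 5, TGA9 between genotypes in QC-marker cells was -0.074 and TGA5 between populations of the wild type 0.0046. Median-of-ratios scaling gave -0.13 for TGA4 and -0.031 for TGA9 between genotypes in QC-marker cells, and -0.42 for TGA1, -0.19 for TGA6 and -0.35 for TGA10 between populations of wox5-1, where it moved the median of all genes from 0.30 to -0.11. Quantile normalization gave -0.10 for TGA4, -0.51 for TGA6 and -0.54 for TGA9 between genotypes in QC-marker cells, where the median of all genes became -0.07, with 0.26 for TGA5 between populations of the wild type and -0.28 for TGA1, -0.13 for TGA6 and -0.28 for TGA10 between those of wox5-1. Without the 3 libraries that stood apart, PAN was -0.76, TGA6 -0.25, TGA7 0.068 and NRT1.1 0.68 between genotypes in QC-marker cells, TGA5 was -5e-04, TGA6 -0.15, TGA3 0.0017, TGA9 -0.044 and TGA10 -0.22 in CEI-marker cells, and TGA5 was 0.36 between populations of the wild type.

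Leaving out 1 library at a time changed the sign of some differences. Between genotypes in QC-marker cells the ranges were -0.76 to 1.74 for PAN, -0.14 to 0.91 for TGA1, -0.26 to 0.34 for TGA4, -0.25 to 0.53 for TGA6, -0.51 to 0.16 for TGA7, -0.71 to 0.77 for TGA9 and -0.54 to 0.68 for NRT1.1. In CEI-marker cells they were -0.064 to 0.73 for TGA4, -0.27 to 0.10 for TGA2, -0.13 to 0.88 for TGA9, -0.25 to 1.01 for TGA10, -0.44 to 0.97 for NPR3, -0.20 to 0.86 for NRT1.1 and -0.023 to 1.33 for ROXY15. Between populations of the wild type they were -0.71 to 1.99 for PAN, -0.60 to 0.19 for TGA4, -0.51 to 0.58 for TGA5 and -1.38 to 0.10 for TGA9. Between those of wox5-1 they were -0.012 to 0.13 for TGA1, -0.005 to 0.46 for TGA6 and -0.22 to 0.42 for TGA10.

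CYP81D11 missed the threshold with no filter (adjusted p = 0.0696) and without the 3 libraries (0.0586), and EDS5 passed with a pseudocount of 5 (0.0484), a filter at 5 FPKM (0.0474), the compared libraries alone (0.047) and without the 3 libraries (0.0153), but not with no filter (0.0708), a pseudocount of 0.1 (0.0652), median-of-ratios scaling (0.149), quantile normalization (0.0731) or a replicate block (0.155). With a replicate block on QC-marker numbers 1 to 3, 0 of 10 genes were called and the signs of TGA4 (-0.054) and TGA9 (-0.024) turned; all genes called fell from 741 to 227. Same-numbered QC-marker libraries deviated together with correlations of 0.031, 0.09 and -0.057, and differently numbered ones with -0.117 to 0.106. With groups of 3 and 4 libraries, these values show no pairing by number and cannot exclude it. No paired analysis was possible for the CEI-marker comparisons because their columns carry no replicate numbers of the titles. In the fit of all 13 libraries, no PAN difference below 3.94 could have been called in any of the comparisons at its SE.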
